A study of Mus musculus with 43 samples.

Results

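Endothelial cells isolated from uninjured wild-type mouse hearts were compared with uninjured wild-type whole hearts. The comparison uses 3 endothelial and 3 whole-heart libraries, chosen by their labels (wild type, homeostasis, endothelial cells or total cells of the heart), of the 43 bulk RNA libraries of the series. The series sets wild-type mice beside mice with a stop codon, Q150X, written into Vegfa by CRISPR/Cas9, without injury and after myocardial infarction. Neither group compared here carries the edit or an injury. The 3 endothelial and 3 whole-heart libraries of uninjured Q150X mice serve as a repeat of the contrast, and the 3 cardiomyocyte libraries of uninjured wild-type mice as a different isolated fraction. RNA was taken with Trizol from tissue or from isolated cells, per the labels. Strain, sex, age, the way cells were isolated or sorted, and whether replicates are separate animals are not stated by the labels, so p-values measure the spread between these libraries, which may be technical. Every endothelial library comes from isolated cells and every heart library from intact tissue, so the cell type and its isolation cannot be told apart.

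Endothelial cells line the chambers, arteries, capillaries, veins and lymphatics of the heart and are outnumbered in RNA by the cardiomyocytes, whose sarcomeres and mitochondria dominate the transcripts of the whole organ. They sense vascular endothelial growth factors and angiopoietins through receptor tyrosine kinases, set artery and vein identity through Notch and BMP signals, and pass fatty acids from blood to muscle. Immediate early genes such as Fos and Jun are switched on within minutes by growth factors, mechanical force and stress, and are also known to rise when a tissue is dissociated into single cells. NF-kappaB, the transcription factor that cytokines release from its inhibitor, drives the adhesion molecules and chemokines by which endothelium recruits leukocytes.

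The 3 heart libraries held 25948706 to 28244624 counts and the 3 endothelial libraries 35700895 to 38761623. Levels are given as CPM, the counts of a gene per 1000000 counts, on library sizes scaled by TMM factors, and they were not compared between genes because they are not corrected for length. Differences are log2 fold changes, endothelial cells minus whole heart, ± standard error (SE) from edgeR's quasi-likelihood test, and a gene is called higher or lower at an adjusted p under 0.05. Mitochondrial genes took 26.8, 30.1 and 30.3% of the counts in the hearts and 2.4, 2.04 and 1.87% in the endothelial cells, and on library size alone the median of all genes moved from 0.03 to 0.69. Heart library 1 stood apart from the other two. It held atrial transcripts (Myl7 at 496, 0 and 0 CPM in hearts 1, 2 and 3), fat (the adipocyte list summed to 84.6, 0.148 and 0.609 CPM) and more red cell, fibroblast, endocardial and immediate early RNA. The list counts and medians that change most with it are given with and without it.

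Of 16228 genes tested, 10498 (64.7%) were called, 5218 of them higher (32.2%) and 5280 lower (32.5%) in endothelial cells. A difference of more than 2-fold, tested as such, was called for 2583 genes higher (15.9%) and 3117 lower (19.2%). On library size alone the split was 7973 higher and 3368 lower, that is 70.3% of called genes higher in place of 49.7%. The median over all genes tested was 0.03, and the lists below are read against that median and these shares. Cardiac endothelial lists were higher nearly throughout, with medians between 0.78 and 2.98. The immediate early list (4.19) and the NF-kappaB list (3.91) had larger medians than any list of endothelial identity with all libraries in. Without heart library 1, described above, the medians were 4.72 and 4.29, beside 4.59 for the endocardial list and 3.15 for the arterial one. The lists of cardiomyocyte structure (-6.64), mitochondrially encoded genes (-4.68) and fatty acid oxidation (-4.18) had the lowest.

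**Figure D1:**
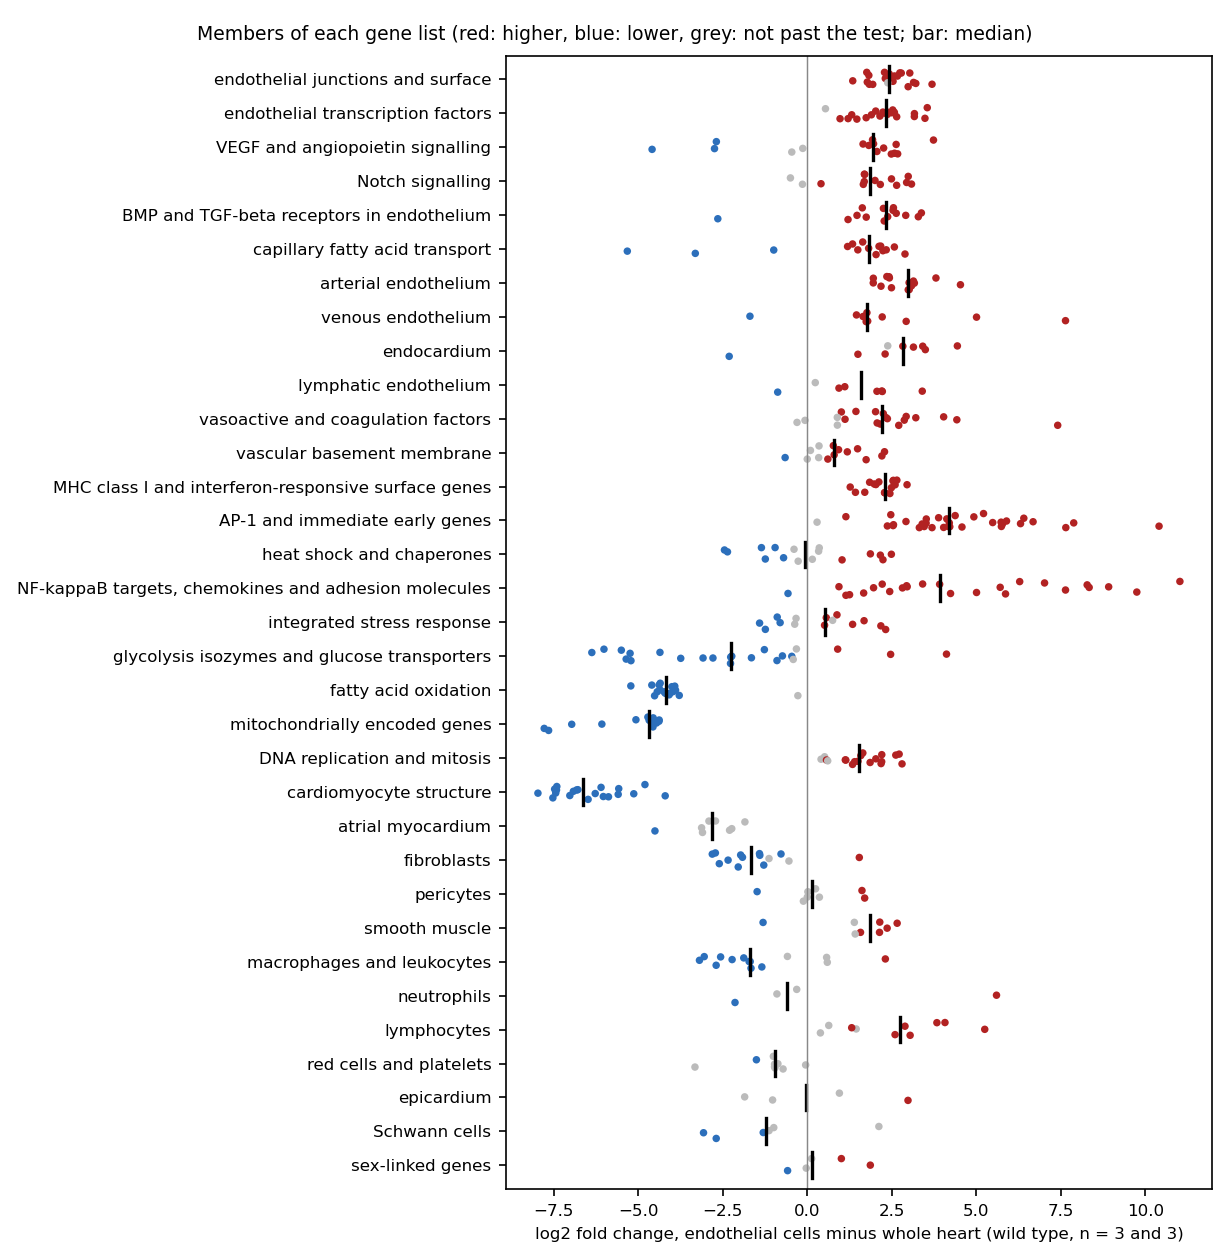
Each point is 1 gene of a list, placed by its log2 fold change between endothelial cells and whole heart (horizontal axis, n = 3 and 3 libraries), coloured by whether edgeR called it higher, lower or neither, with the list median as a bar. The point at 11.02 in the NF-kappaB list is Csf3, whose heart counts are all 0, so that its position depends on the fit.

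The 10 largest differences upward were chosen among genes at 5 log2 CPM or more in the higher group. The choice also required the 2-fold test to pass and the groups not to overlap. These 10 included 3 members of the immediate early list and 4 of the NF-kappaB list, and none of the junction list. Fosb, a partner in the AP-1 transcription factor, stood at 5.46, 0.517 and 1.29 CPM in the hearts and 3640, 3523 and 2978 in the endothelial cells (10.41 ± 0.91). The cytokine Il6 was at 0.213, 0 and 0.152 CPM in the hearts and 85.7, 115 and 129 in the endothelial cells (9.75 ± 0.46). For both genes the lowest endothelial library lay far above the highest heart, though some separation was a condition of the choice. The chemokine Cxcl10 (8.92), the leukocyte-capturing selectins Sele (8.34) and Selp (7.64), the protease Adamts4 (8.08), the cytokine signalling inhibitor Socs3 (7.88), the small GTPase Rnd1 (7.74), Fos (7.65) and the prostaglandin synthase Ptgs2 (7.41) made up the rest, with adjusted p from 7.65e-08 (Rnd1) to 0.000153 (Fos). Adamts4 stood at 0.0709, 1.25 and 1.86 CPM in the hearts and 280.1, 288 and 306 in the endothelial cells. Rnd1 stood at 1.14, 1.55 and 1.94 CPM in the hearts and 308, 359.7 and 341 in the endothelial cells.

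Muscle genes were among the 10 largest differences downward. Titin (Ttn) stood at 2641, 5651 and 5642 CPM in the hearts and 22.9, 15.2 and 18.6 in the endothelial cells (-7.97 ± 0.40). The uncoupling protein Ucp3 was at 72, 23.9 and 38.8 CPM in the hearts and 0.0726, 0.035 and 0.143 in the endothelial cells (-9.02 ± 0.60), and the myosin Myh7b at 57.2, 215 and 184 CPM in the hearts and 0.236, 0.526 and 0.383 in the endothelial cells (-8.66 ± 0.65). Lack of overlap between the groups was a condition of the choice here too, so it is not a result for these genes. Another myosin, Myh14 (-7.87), the noncoding Mhrt (-8.51), Asb15 (-8.28), the oxoglutarate dehydrogenase relative Ogdhl (-8.15) and Lrtm1 (-7.96) belonged to the same 10. Mhrt overlaps Myh7 in antisense, and as the strandedness of the counting is not given its reads cannot be told apart from those of Myh7.

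The endothelial label was borne out by its markers. Of 22 junction and surface genes 21 were higher, none lower, and in all 22 the lowest endothelial library was above the highest heart. That separation held for 37.5% of all genes tested. Cdh5, the VE-cadherin that joins endothelial cells, stood at 291, 221 and 264 CPM in the hearts and 1566, 1326 and 1398 in the endothelial cells (2.44 ± 0.17, adjusted p = 2.77e-06, 5.41-fold). Pecam1, the adhesion molecule CD31, was at 239, 209.9 and 190.4 CPM in the hearts and 1807, 1823 and 1705 in the endothelial cells (3.03 ± 0.16). The sialomucin Emcn had the largest difference of the list, from 48.4, 48.2 and 35.9 CPM in the hearts to 608, 587 and 551 in the endothelial cells (3.69 ± 0.18). The tight junction gene Cldn5 (3.21) and the receptor regulator Ecscr (3.14) also exceeded 3. The exception to the call was Plvap, the diaphragm protein of fenestrated vessels, at 51, 3.29 and 5.33 CPM in the hearts and 124, 90.2 and 102 in the endothelial cells (2.38 ± 1.06, adjusted p = 0.0968). Heart library 1 lay between the other hearts and the endothelial libraries, and without it the difference was 4.56 and passed (adjusted p = 7.09e-12). Summed over the list the hearts held 2808, 2302 and 2318 CPM, the endothelial cells 14660, 13570 and 13550 and the cardiomyocytes 906, 1416 and 829.

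**Figure D2:**
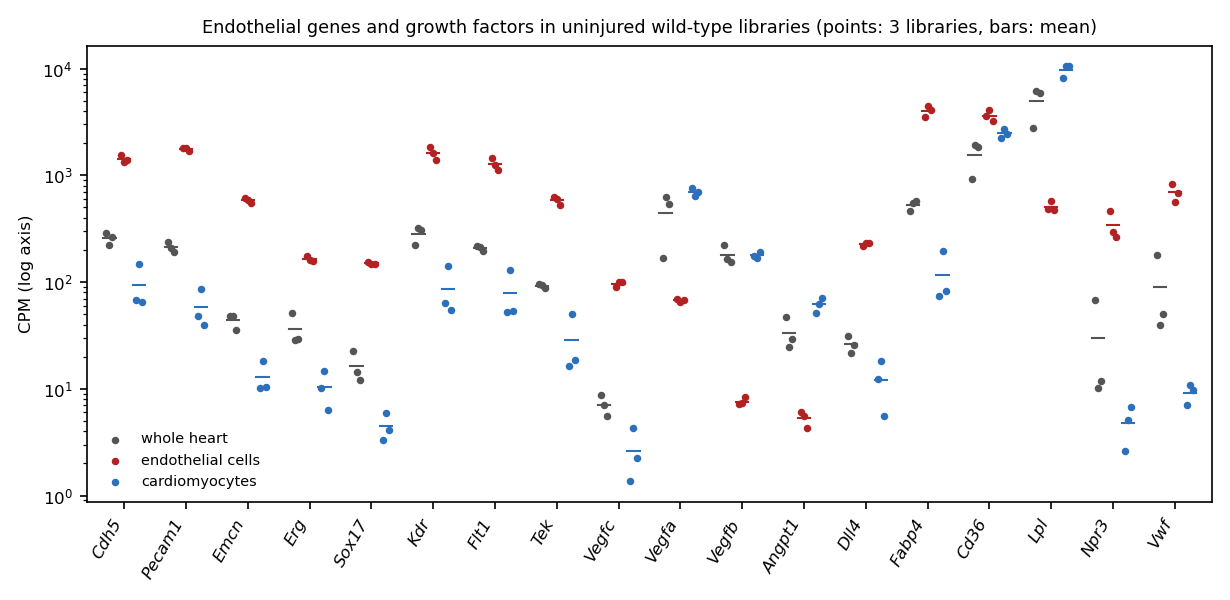
Points are single wild-type libraries (grey whole heart, red endothelial cells, blue cardiomyocytes, 3 each), bars their means, on a logarithmic axis of CPM. Receptors and junction genes lie highest in endothelial cells, while Vegfa, Vegfb, Angpt1 and Lpl lie lowest there.

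Transcription factors of the endothelial lineage moved with the junction genes: 21 of 22 were higher and none lower (median 2.32). The SOX factors of vessel formation were prominent, Sox17 going from 22.6, 14.2 and 12.1 CPM in the hearts to 153, 148 and 147 in the endothelial cells (3.17 ± 0.24) and Sox7 reaching 3.48 ± 0.26. The ETS factor Erg, which keeps endothelial identity, was at 51.5, 28.5 and 29.5 CPM in the hearts and 175, 163 and 158 in the endothelial cells (2.15 ± 0.23). Tal1, a factor of blood and endothelial fate, differed by 3.17 ± 0.15, and Meox2, which with Tcf15 controls fatty acid uptake in heart capillaries, by 2.57 ± 0.16. The flow-responsive Klf4 had the largest difference (3.55 ± 0.31). Its relative Klf2 stood at 215, 46.4 and 50.3 CPM in the hearts, where library 1 stood above the others, and 569, 574 and 511 in the endothelial cells (2.38 ± 0.59, and 3.46 without heart library 1). Lyl1 did not pass (0.54 ± 0.34, adjusted p = 0.197), but passed without heart library 1 (1.06).

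Within the VEGF and angiopoietin system, receptors were higher and the main ligands lower in endothelial cells. Kdr, the main signalling receptor of VEGF-A, stood at 223, 321 and 305 CPM in the hearts and 1838, 1630 and 1383 in the endothelial cells (2.48 ± 0.20, adjusted p = 7.38e-06). The decoy receptor Flt1 was at 218, 214 and 196 CPM in the hearts and 1456, 1248 and 1130 in the endothelial cells (2.58 ± 0.16). For neither did the groups overlap. The lymphatic receptor Flt4 (2.06 ± 0.22), the co-receptors Nrp1 (1.93 ± 0.16) and Nrp2 (1.96 ± 0.15), and the angiopoietin receptors Tek (2.63 ± 0.15) and Tie1 (2.26 ± 0.21) were higher too. Vegfa itself, the gene edited in the other mice of the series, was at 168, 631 and 535 CPM in the hearts, 69.5, 65.8 and 67.7 in the endothelial cells and 761, 643 and 692 in the cardiomyocytes. Every endothelial library lay below every heart (-2.75 ± 0.43, adjusted p = 0.000599), also without heart library 1, the lowest of the hearts (-3.16).

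The other ligands did not all follow Vegfa. Vegfb, which signals through Flt1, fell from 222, 163 and 155 CPM in the hearts to 7.17, 7.3 and 8.34 in the endothelial cells (-4.60 ± 0.19), and Angpt1, the agonist of Tek, from 47.5, 24.4 and 29.1 CPM in the hearts to 6.11, 5.52 and 4.32 in the endothelial cells (-2.69 ± 0.27). Vegfc, the ligand of Flt4, went the other way, from 8.73, 7.05 and 5.52 CPM in the hearts to 90, 99.9 and 99.4 in the endothelial cells (3.73 ± 0.19), as did the Tek antagonist Angpt2 (2.67 ± 0.17) and the placental growth factor Pgf (1.82 ± 0.27). Paired by receptor, the agonist Angpt1 was lower and the antagonist Angpt2 higher in the same libraries. The apelin receptor Aplnr was higher (1.65 ± 0.16), while its ligand Apln, at 18.1, 21.6 and 20.2 CPM in the hearts and 15.2, 18.3 and 22.1 in the endothelial cells, did not pass (-0.14 ± 0.18, adjusted p = 0.514), nor did Vegfd (-0.46 ± 0.50). On library size alone the values of Apln and Vegfd were above 0, at 0.54 and 0.16, and without heart library 1 that of Vegfd was 0.39. In all, 11 of 16 tested genes of this list were higher and 3 lower.

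Notch genes were higher in 12 of 14 cases and lower in none (median 1.85). The ligand Dll4, which marks arterial and sprouting tip cells, stood at 31.1, 21.7 and 25.7 CPM in the hearts and 216, 232 and 231 in the endothelial cells (3.08 ± 0.17). Jag1 (2.98 ± 0.17) and Dll1 (2.94 ± 0.24) had similar values. Among the receptors Notch1 (2.16 ± 0.27) and Notch4 (1.69 ± 0.16), the endothelial ones, passed, as did the mural cell receptor Notch3 (1.70 ± 0.19), whereas Notch2 did not (-0.15 ± 0.17, adjusted p = 0.461, and 0.51 on library size alone, where it passed as higher). The targets Hey1 (2.49), Hes1 (2.64) and Nrarp (2.00) were higher and Heyl (-0.50, adjusted p = 0.0924) did not pass, though it did as lower without heart library 3 (-0.66) and stood at 0.14 on library size alone.

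Of 14 genes of the BMP and TGF-beta branch 13 were higher (median 2.32, and 2.85 without heart library 1). The receptor Acvrl1 (2.25 ± 0.19) and its co-receptor Eng (2.53 ± 0.29), both mutated in hereditary telangiectasia, and their target Id1, at 52.2, 38.3 and 41 CPM in the hearts and 401, 491 and 501 in the endothelial cells (3.37 ± 0.18), were higher together with Id2 (3.28) and Id3 (2.55). The ligands Bmp2 (2.91), Bmp4 (2.38) and Bmp6 (2.63) were higher too. The member called against the rest was Bmper, a secreted BMP binder, at 10.3, 4.1 and 2.89 CPM in the hearts and 0.454, 1.09 and 1.26 in the endothelial cells (-2.65 ± 0.55).

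Genes of each vessel type were present. All 15 arterial genes were higher, with the largest list median among vessel types (2.98). The kinase Bmx went from 4.86, 1.48 and 1.37 CPM in the hearts to 68.7, 56.9 and 57 in the endothelial cells (4.53 ± 0.47), and Stmn2 (3.80 ± 0.17) and the semaphorin Sema3g (3.14 ± 0.15) followed. The arterial and Notch lists share Dll4, Hey1 and Jag1, so they are not separate evidence. Of 10 venous genes 9 were higher and 1 lower. Among these were Nr2f2, the factor of vein identity (1.74 ± 0.32), its effector Ephb4 (1.45 ± 0.25) and von Willebrand factor, Vwf, at 179.7, 39.8 and 49.8 CPM in the hearts and 834, 563 and 686 in the endothelial cells (2.92 ± 0.57, and 3.90 without heart library 1). Lrg1 was lower (-1.70 ± 0.26), with 10.2, 14.5 and 12.5 CPM in the cardiomyocytes beside 7.48, 10.6 and 13.7 in the hearts.

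Endocardial genes, which mark the lining of the chambers, were higher in 7 of 9 cases, and in 8 without heart library 1. Npr3, the natriuretic peptide clearance receptor, stood at 67.3, 10.2 and 11.9 CPM in the hearts and 462, 296 and 267 in the endothelial cells (3.49 ± 0.80). Heart library 1 held several times as much Npr3, Cytl1 (22.6, 2.47 and 2.93 CPM), Smoc1 (16.2, 1.99 and 2.09 CPM) and Foxc1 (12.2, 1.77 and 2.06 CPM) as the other hearts, and the list median rose from 2.82 to 4.59 without it. The call of Cytl1 as higher was lost without endothelial library 2 or 3. Gata4 was lower (-2.31 ± 0.13), at 114, 123 and 123 CPM in the cardiomyocytes, which are known to express it. Of 8 lymphatic genes 6 were higher, led by Mmrn1 (3.40 ± 0.47). The lymphatic chemokine Ccl21a (2.22 ± 0.29) has near-identical copies, so its value is uncertain. The lymphatic master factor Prox1 was lower (-0.88 ± 0.23, adjusted p = 0.00843). Prox1 stood at 56.6, 68.9 and 57.9 CPM in the hearts, 47.5, 27.4 and 27.1 in the endothelial cells and 99.5, 132 and 138 in the cardiomyocytes, highest in the last.

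The route of fatty acids split between cells. Fabp4, the capillary fatty acid binding protein, stood at 466, 554 and 575 CPM in the hearts and 3549, 4465 and 4056 in the endothelial cells (2.89 ± 0.18). The transporter Cd36 was at 929, 1907 and 1833 CPM in the hearts and 3574, 4071 and 3243 in the endothelial cells (1.19 ± 0.27), with 2241, 2730 and 2458 in the cardiomyocytes. Gpihbp1, which anchors lipoprotein lipase to the capillary wall, was higher (1.49 ± 0.16), and the lipase itself, Lpl, was lower, from 2774, 6165 and 5934 CPM in the hearts to 485, 572 and 471 in the endothelial cells (-3.32 ± 0.31, adjusted p = 2e-05). The anchor was higher and the enzyme it anchors lower in the same libraries, and Lpl was highest in the cardiomyocytes (8219, 10510 and 10530 CPM). The transport proteins Slc27a1 (-5.33 ± 0.24) and Slc27a4 (-0.996 ± 0.17) were lower and Slc27a3 (1.81 ± 0.48) higher. Fabp5 (2.33), the carbonic anhydrase Car4 (2.03), the water channel Aqp1 (1.64) and the nuclear receptor Pparg (2.12) belonged to the 12 of 15 that were higher.

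Genes by which endothelium governs vessel tone and clotting were higher in 16 of 20 cases and lower in none, and without heart library 1 in 19 and 1. The nitric oxide synthase Nos3 was at 42, 16.3 and 22.1 CPM in the hearts and 153, 126 and 145 in the endothelial cells (2.37 ± 0.32). The vasoconstrictor precursor Edn1 went from 2.59, 2.73 and 2.51 CPM in the hearts to 61.6, 53.9 and 56.4 in the endothelial cells (4.42 ± 0.15), with 9.39, 8.41 and 7.22 in the cardiomyocytes. Of the anticoagulant receptors Thbd differed by 3.21 ± 0.15 and Procr by 4.03 ± 0.19, and the plasminogen activator Plat by 2.87 ± 0.14. The cyclooxygenases differed in size: Ptgs2 stood at 3.87, 0.812 and 0.685 CPM in the hearts and 416, 274 and 248 in the endothelial cells (7.41 ± 0.70), against 2.25 ± 0.36 for Ptgs1. Prostacyclin synthase, Ptgis, did not pass (-0.07 ± 0.44, and 0.75 without heart library 1, where it passed), nor did the clotting inhibitor Tfpi (-0.31 ± 0.18, and -0.51 without heart library 1, where it passed as lower). On library size alone these values were 0.55 and 0.37. Basement membrane genes differed least of the endothelial lists: 9 of 14 were higher and 1 lower. Sparcl1 (2.28 ± 0.16) and the laminin Lama4 (1.74 ± 0.15) led, Col4a1 differed by 0.92 ± 0.21, Col4a2 (0.33 ± 0.19) did not pass, and Col15a1 was lower (-0.66 ± 0.19), a call lost without heart library 3 or without endothelial library 1 or 2, and with all 18 homeostasis libraries in the fit, and turned to 0.001 on library size alone.

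All 16 genes of antigen presentation and interferon-responsive surface proteins were higher, with no overlap of the groups. B2m, the light chain of MHC class I, stood at 231, 214 and 223 CPM in the hearts and 1239, 1673 and 1367 in the endothelial cells (2.65 ± 0.17). The peptide transporter Tap1 was at 11.4, 11.4 and 11.4 CPM in the hearts and 82, 96.7 and 92 in the endothelial cells (2.95 ± 0.14), Ly6a at 2.60 ± 0.24 and Ifitm3 at 2.54 ± 0.16. In cardiomyocytes all 16 were lower than in the hearts, B2m at 53.3, 68.6 and 65.9 CPM. The class I genes H2-K1 (2.49) and H2-D1 (2.53) have near-identical relatives, between which reads may have been split.

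The AP-1 and immediate early list held 34 genes, all tested, and 33 were higher in endothelial cells. Of the 34, 21 exceeded 3.69, the largest value among junction genes, as did 1.92% of all genes tested. Fos stood at 22, 3.36 and 3.73 CPM in the hearts and 2107, 2089 and 1756 in the endothelial cells (7.65 ± 0.87, adjusted p = 0.000153). Egr1, an early zinc finger factor, was at 51.1, 5.95 and 5.63 CPM in the hearts and 1871, 1836 and 1366 in the endothelial cells (6.31 ± 1.06), and Junb at 54.5, 10.6 and 10.3 CPM in the hearts and 1332, 1426 and 1448 in the endothelial cells (5.77 ± 0.74). In these 3 genes heart library 1 stood well above the other hearts and still far below the endothelial libraries. Without it the differences were 9.07 for Fos, 8.13 for Egr1, 7.01 for Junb and 11.82 for Fosb. Genes on which the 3 hearts agreed gave large differences as well. Atf3, the stress factor of the ATF family, was at 17.7, 17.3 and 13.3 CPM in the hearts and 1334, 1613 and 1235 in the endothelial cells (6.40 ± 0.22). Gadd45b (5.21 ± 0.20), Ppp1r15a, which reverses the phosphorylation of eIF2-alpha (4.17 ± 0.15), and Egr2 (5.74 ± 0.25) were further ones.

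The members differed widely among themselves, from 0.29 to 10.41. Jun, a partner of Fos, stood at 148, 51.5 and 51.3 CPM in the hearts and 986, 1015 and 927 in the endothelial cells (3.52 ± 0.42), so its difference was less than that of Fos. Feedback inhibitors of the response were among the members: the mRNA-decay factor Zfp36 (5.89 ± 0.51), the phosphatases Dusp1 (2.55 ± 0.42) and Dusp2 (6.68 ± 0.41), Socs3 (7.88 ± 0.44) and Btg2 (4.21 ± 0.32). Socs3 went from 8.02, 3.8 and 2.7 CPM in the hearts to 1198, 1195 and 1113 in the endothelial cells. The orphan nuclear receptors Nr4a1 (2.54 ± 0.52) and Nr4a2 (5.73 ± 0.65) and the GTPase Rhob (1.14 ± 0.32) were higher too. Ccn2, a matrix protein and target of YAP, did not pass (0.29 ± 0.26, adjusted p = 0.367), although it did without heart library 1 (0.69), whereas its relative Ccn1 passed with all libraries (2.37 ± 0.21).

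**Figure D3:**
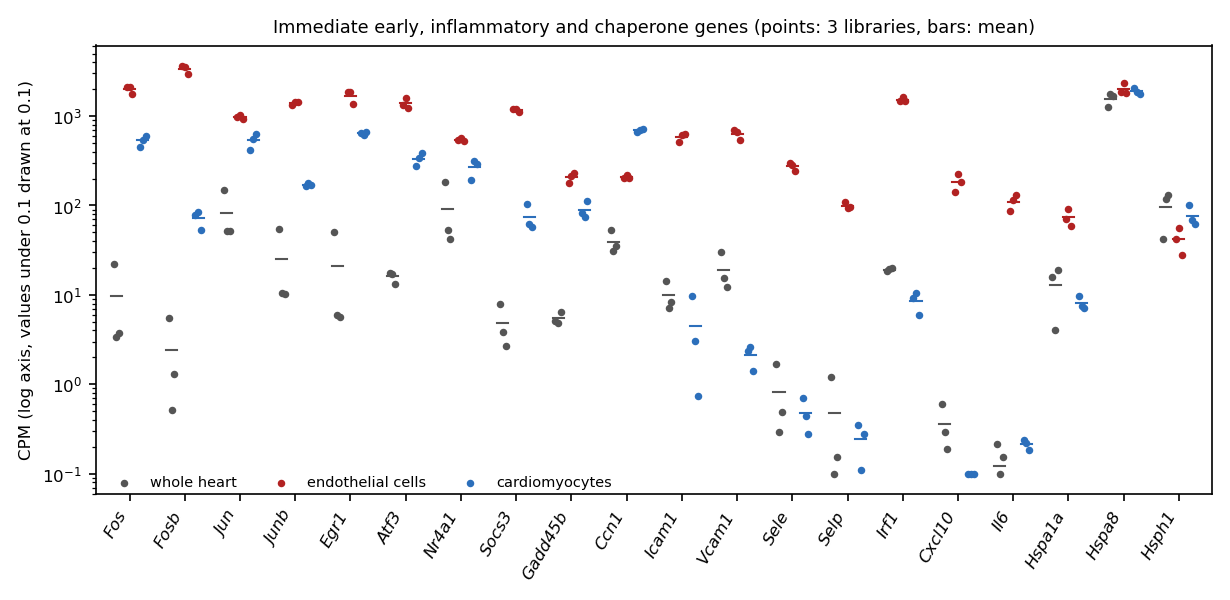
Points are single wild-type libraries (grey whole heart, red endothelial cells, blue cardiomyocytes, 3 each), bars their means, on a logarithmic axis of CPM with values under 0.1 drawn at 0.1. Early genes are high in both isolated fractions, adhesion molecules and chemokines in endothelial cells, and the mean of Hsph1 is lower in endothelial cells than in the hearts, with 1 heart among the endothelial libraries.

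Cardiomyocytes, the other isolated fraction, share the heart libraries with this contrast, so the values are set side by side only. In them 25 of the 34 early genes were higher than in the hearts, where 14.0% of 17617 genes were, and 1 was lower (19.3%), with a median of 1.72 beside 4.19 in endothelial cells. Fos was at 454, 543 and 605 CPM, Egr1 at 646, 619 and 669.5 and Atf3 at 279, 342 and 382 in the 3 cardiomyocyte libraries, above every heart and below every endothelial library. For Ccn1 the cardiomyocytes were highest, at 52.8, 30.6 and 35.1 CPM in the hearts, 205, 218 and 202 in the endothelial cells and 662, 701 and 720 in the cardiomyocytes. Fosl2 (0.19) and Klf6 (0.01) did not pass in cardiomyocytes. Differences between the isolated cell types themselves were not tested.

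The NF-kappaB list, made up of known targets of that factor, held 24 genes that were higher and 1 that was lower of 25 tested. A 10-base pattern was searched on either strand: 3 guanines, any 3 bases, a thymine, a pyrimidine, then cytosines. It is called an NF-kappaB match here, and other forms of the site were not tried. It was found in the 250 bases before the start of 11 of the 19 members with a RefSeq promoter (57.9%). Of all 27025 promoters, 8.67% held it. Such a match is a description of the letters and says nothing of binding in these cells, and the list was chosen for targets of the factor. Of the immediate early list 3 of 26 promoters held the pattern (11.5%). It was held by 1 of 12 of the junction list (8.33%) and 5 of 12 of the antigen presentation list (41.7%). The AP-1 element TGANTCA was found in 7 of the 19 (36.8%) and in 0 of the 26 of the immediate early list, beside 6.87% of all promoters, and a 10-base NF-kappaB match can overlap another on the opposite strand. Sele and Icam1, whose large differences are given below, held no NF-kappaB match in their windows. The promoters of 4 members chosen for holding a match and a large difference are shown, and they do not stand for the list. They are read 5′ to 3′ toward the start, with NF-kappaB matches in capitals, from RefSeq on GRCm38.p6 (the submitters' processing notes name GRCm39 for the counts): Cxcl1 at chr5:90890995-90891244 (plus strand), Cxcl10 at chr5:92348890-92349139 (minus strand), Il6 at chr5:30012864-30013113 (plus strand) and Irf1 at chr11:53769764-53770013 (plus strand).
Cxcl1: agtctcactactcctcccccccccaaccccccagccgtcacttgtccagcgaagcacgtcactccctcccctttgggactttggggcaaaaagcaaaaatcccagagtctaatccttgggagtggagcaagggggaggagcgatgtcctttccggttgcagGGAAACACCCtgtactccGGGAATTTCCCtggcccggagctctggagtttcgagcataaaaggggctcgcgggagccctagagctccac
Cxcl10: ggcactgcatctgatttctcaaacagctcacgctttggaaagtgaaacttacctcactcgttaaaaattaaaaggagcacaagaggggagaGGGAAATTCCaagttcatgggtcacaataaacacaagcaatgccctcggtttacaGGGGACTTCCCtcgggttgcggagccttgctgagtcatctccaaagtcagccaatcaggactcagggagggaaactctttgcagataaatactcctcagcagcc
Il6: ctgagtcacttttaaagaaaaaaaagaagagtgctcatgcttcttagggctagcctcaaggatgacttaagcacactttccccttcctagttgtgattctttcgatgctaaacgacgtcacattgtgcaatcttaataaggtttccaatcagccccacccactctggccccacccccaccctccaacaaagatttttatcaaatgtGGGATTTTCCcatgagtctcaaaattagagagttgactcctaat
Irf1: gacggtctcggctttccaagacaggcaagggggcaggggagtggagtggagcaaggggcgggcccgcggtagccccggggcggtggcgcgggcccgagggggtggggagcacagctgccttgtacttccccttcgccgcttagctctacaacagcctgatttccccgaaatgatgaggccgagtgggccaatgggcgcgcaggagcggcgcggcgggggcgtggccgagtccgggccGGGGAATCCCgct

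The match nearest to the start begins 70 bases before it in Cxcl1, 103 in Cxcl10, 44 in Il6 and 13 in Irf1. Cxcl1, a chemokine for neutrophils, stood at 0.922, 0.259 and 0.381 CPM in the hearts and 55.1, 79.3 and 75.2 in the endothelial cells (7.02 ± 0.39). Cxcl10, which attracts T cells, was at 0.603, 0.295 and 0.19 CPM in the hearts and 141, 223 and 184 in the endothelial cells (8.92 ± 0.37). Irf1, the interferon regulatory factor, was at 18.5, 19.4 and 19.8 CPM in the hearts and 1461, 1650 and 1477 in the endothelial cells (6.28 ± 0.17, adjusted p = 7.65e-08), with closely matching hearts. Of these 4 genes only Cxcl1 was higher in cardiomyocytes (2.65), where Irf1 stood at 9.33, 10.6 and 5.98 CPM and Cxcl10 at 0.059, 0 and 0.

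Adhesion molecules for leukocytes formed a second group of members. Sele, E-selectin, stood at 1.67, 0.295 and 0.495 CPM in the hearts and 297, 282 and 243 in the endothelial cells (8.34 ± 0.53), and Selp, P-selectin, at 1.21, 0.0738 and 0.152 CPM in the hearts and 110.5, 92.8 and 95.1 in the endothelial cells (7.64 ± 0.68). Icam1 was at 14.3, 7.05 and 8.3 CPM in the hearts and 510.2, 617 and 635 in the endothelial cells (5.86 ± 0.31) and Vcam1 at 29.8, 15.6 and 12.3 CPM in the hearts and 698, 655 and 538 in the endothelial cells (5.01 ± 0.35). Heart library 1 was the highest heart for all 4, and without it the values were 9.38, 9.70, 6.21 and 5.45. In cardiomyocytes Sele was at 0.709, 0.44 and 0.276 CPM and Vcam1 at 2.36, 2.58 and 1.43, below every endothelial library.

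Inhibitors of the pathway were higher along with its products. Nfkbia, the inhibitor IkappaB-alpha, was at 53.6, 30.2 and 24.4 CPM in the hearts and 477, 569.7 and 618 in the endothelial cells (3.91 ± 0.31), and the deubiquitinase Tnfaip3, A20, at 3.62, 2.92 and 3.05 CPM in the hearts and 165, 184 and 162 in the endothelial cells (5.71 ± 0.17). The subunit genes Nfkb1 (0.93 ± 0.12) and Nfkb2 (1.14 ± 0.18) differed by less. Csf3, the granulocyte growth factor, had 0 counts in the 3 hearts and 1071 in the endothelial libraries, at least 166-fold higher against a floor of 3 counts over the heart group. The list median of 3.91 is the same with Csf3 at that bound, since both lie above it. The member called lower was Tnfaip2 (-0.57 ± 0.16, adjusted p = 0.012), a call lost without endothelial library 1 or 2 and turned to 0.09 on library size alone. In cardiomyocytes 3 of the 25 were higher and 10 lower than in the hearts (median -0.84).

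Of 16 heat shock genes 5 were higher, 6 lower and 5 did not pass (median -0.06, and 0.60 on library size alone), shares near those of all genes tested. Without heart library 1, 3 were higher and 8 lower. The inducible Hspa1a stood at 15.7, 4.06 and 18.8 CPM in the hearts and 69.9, 91 and 59.4 in the endothelial cells (2.49 ± 0.50, adjusted p = 0.0029). No heart reached an endothelial library, and without heart library 1 the gene no longer passed (adjusted p = 0.0582). Its near-identical copy Hspa1b (2.24 ± 0.76) shares reads with it and is uncertain, and its call was lost without heart library 1 or endothelial library 2 or 3. The co-chaperones Dnajb1 (2.16 ± 0.26) and Dnaja1 (1.86 ± 0.25) and Hsp90aa1 (1.03 ± 0.33) were higher, Hsp90aa1 losing the call without endothelial library 1 or 2. The constitutive Hspa8 did not pass (0.33 ± 0.19), but did on library size alone (1.01). Lower were the mitochondrial chaperonins Hspd1, from 282, 537 and 465 CPM in the hearts to 76.6, 92.1 and 71.1 in the endothelial cells (-2.45 ± 0.25), and Hspe1 (-2.37 ± 0.21), the muscle co-chaperone Bag3 (-1.36 ± 0.13), and Hsph1 (-1.25 ± 0.42), which lost the call in 4 of the 6 fits that left out 1 library. Among genes of the integrated stress response 7 of 14 were higher and 4 lower (median 0.53, 0.31 without endothelial library 2 and 1.19 on library size alone). Atf4, its main factor, went from 74.2, 89.6 and 80.7 CPM in the hearts to 377, 464 and 404 in the endothelial cells (2.32 ± 0.15), Asns, asparagine synthetase, differed by 2.17 ± 0.20, and Shmt2, a mitochondrial enzyme of serine use, was lower (-1.42 ± 0.14).

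Glycolysis differed by isozyme. Of 23 genes tested 18 were lower and 3 higher in endothelial cells (median -2.27). The insulin-sensitive transporter Slc2a4 fell from 370, 392 and 354 CPM in the hearts to 9.53, 10.4 and 10.1 (-5.25 ± 0.15), while Slc2a1 (0.90 ± 0.21) and Slc2a3, at 4.72, 2.07 and 2.09 CPM in the hearts and 17.8, 16.3 and 16 in the endothelial cells (2.46 ± 0.32), were higher. Hk2 (-5.36 ± 0.23) was lower by more than Hk1 (-0.74 ± 0.16). Of the phosphofructokinases the muscle form Pfkm differed by -5.22 ± 0.16 and the liver form Pfkl by -1.27 ± 0.13, and the platelet form Pfkp did not pass (-0.33 ± 0.19, and -0.54 without heart library 1, where it passed as lower, and 0.35 on library size alone).

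The same held along the rest of the pathway. Eno3 went from 1067, 1228 and 1110 CPM in the hearts to 16, 12.8 and 13 in the endothelial cells (-6.38 ± 0.19), and Eno1, at 166, 108 and 106 CPM in the hearts and 84.1, 99.2 and 107 in the endothelial cells, did not pass (-0.42 ± 0.20, adjusted p = 0.0912, and 0.23 on library size alone). Pgam2 (-6.02 ± 0.17) and Ldhb (-5.51 ± 0.17) differed by more than Pgam1 (-0.46 ± 0.15) and Ldha (-0.90 ± 0.16), so in each pair the form known from heart muscle had the lower value. The call of Pgam1 was lost without any 1 of the endothelial libraries and its value was 0.20 on library size alone. The largest rise was that of Pfkfb3, which makes the allosteric activator of phosphofructokinase, from 17.8, 8.09 and 6.59 CPM in the hearts to 203, 204 and 169 in the endothelial cells (4.12 ± 0.37), whereas the cardiac form Pfkfb2 was lower (-3.75 ± 0.51). Differences between isozymes were not tested against each other.

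**Figure D4:**
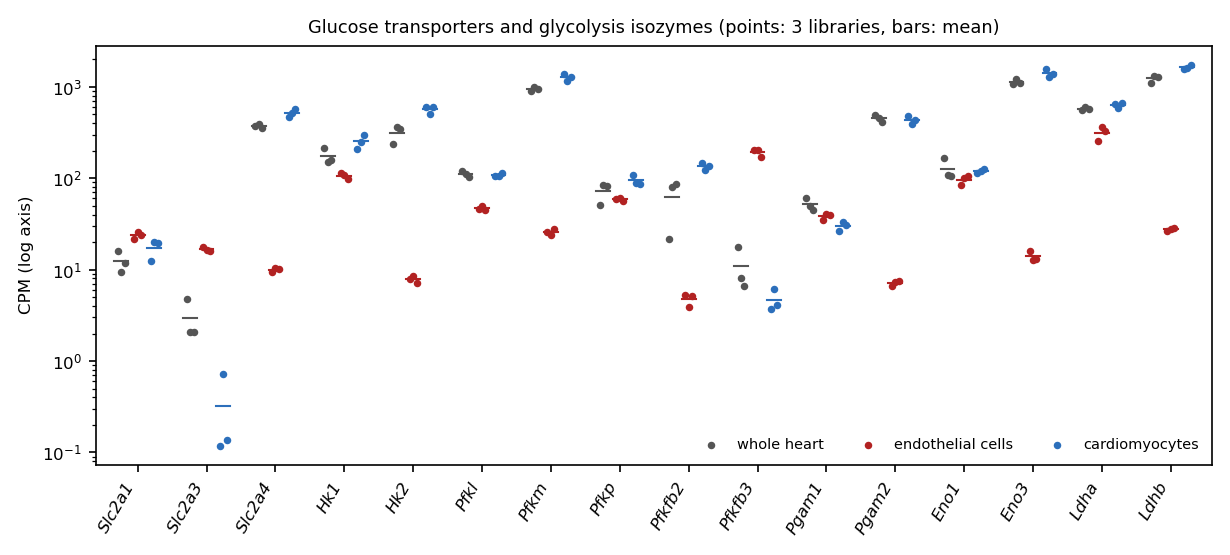
Points are single wild-type libraries (grey whole heart, red endothelial cells, blue cardiomyocytes, 3 each), bars their means, on a logarithmic axis of CPM. Slc2a3 and Pfkfb3 lie highest in endothelial cells, and Slc2a4, Hk2, Pfkm, Pgam2, Eno3 and Ldhb lie there at a small part of their heart level.

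Oxidation of fatty acids was lower as a block: 17 of 18 genes were lower, with values between -5.23 (Cpt2) and -3.79 (Acads) for those called. Cpt2, of the carnitine shuttle, went from 177, 247 and 217 CPM in the hearts to 6.22, 5.38 and 5.88 in the endothelial cells (-5.23 ± 0.19). The exception was Cpt1a, the liver-type carnitine palmitoyltransferase that endothelial cells also use, at 79.4, 47.1 and 57.6 CPM in the hearts and 54.8, 51 and 49 in the endothelial cells (-0.28 ± 0.19, adjusted p = 0.222, and 0.36 on library size alone), while the muscle form Cpt1b was lower (-3.90 ± 0.44). All 13 mitochondrially encoded protein genes were lower. The oxidase subunit mt-Co1 stood at 103300, 114500 and 113700 CPM in the hearts and 6233, 5223 and 4691 in the endothelial cells (-4.39 ± 0.20), and mt-Co3 at 2212, 1832 and 1766 CPM in the hearts and 7.84, 14.1 and 7.43 in the endothelial cells (-7.66 ± 0.34). Why mt-Co3 lay so far below the list median of -4.68 was not tested, so its value is uncertain. The lowest value of the list was that of mt-Atp8 (-7.79). Values of mt-Atp8 and mt-Atp6, and of mt-Nd4l and mt-Nd4, are uncertain because the genes of each pair overlap. That of the antisense mt-Nd6 is uncertain for lack of a stated strand.

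All 20 genes of cardiomyocyte structure were lower, with a median of -6.64, and none was absent. Myh6, the heavy chain of adult mouse myosin, stood at 22320, 26380 and 25430 CPM in the hearts, 168, 130.5 and 126 in the endothelial cells and 42320, 39340 and 42640 in the cardiomyocytes (-7.48 ± 0.23 between the first groups). Troponin T, Tnnt2, was at 2917, 5049 and 4439 CPM in the hearts and 76.4, 74.2 and 63.9 in the endothelial cells (-5.89 ± 0.27). Summed, the list held 76320, 100200 and 93820 CPM in the hearts and 1135, 1066 and 989 in the endothelial cells, so muscle RNA remained in all endothelial libraries. In bulk RNA, fewer cells of a type and less RNA per cell cannot be told apart.

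Atrial genes depended on 1 library. With all hearts, 1 of 8 was lower, the potassium channel Kcnj3 (-4.51 ± 0.33), and the median was -2.82. Without heart library 1, 6 were higher and 1 lower, with a median of 6.20, or 5.94 when genes at 0 in both remaining hearts are put at their lower bound. The atrial myosin light chain Myl7 was at 496, 0 and 0 CPM in the hearts and 38, 47.9 and 54.4 in the endothelial cells, and Myl4 at 692, 1.07 and 0.571 CPM in the hearts and 39.5, 46.4 and 57.3 in the endothelial cells. Hearts 2 and 3 together had 0 counts of Myl7 beside 8244 in the endothelial libraries, at least 838-fold higher against a floor of 3 counts over both hearts. Sln (224, 0.222 and 0 CPM in the hearts and 10.2, 10.4 and 14 in the endothelial cells) and the atrial growth factor Bmp10 (261, 0 and 0 CPM in the hearts and 9.51, 16.6 and 9.2 in the endothelial cells) had the same pattern. The other members differed: the natriuretic peptide gene Nppa was at 962, 29 and 27.5 CPM in the hearts and 35.6, 40.9 and 44.2 in the endothelial cells, and Kcnj3 and Stard10 were also present in hearts 2 and 3. Myl7, Bmp10 and Mybphl, at 0 counts in hearts 2 and 3, were detected in the endothelial libraries. Which parts of the heart entered each library is not given in the sources used here, and the part of this in the endocardial and other values was not tested.

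Other cell types remained in the endothelial libraries to unequal degrees. Fibroblast genes were lower in 11 of 14 cases (median -1.67, and -1.12 without heart library 1). Their sum went from 5141, 1905 and 2066 CPM in the hearts to 941, 1280 and 1136 in the endothelial cells, with no marker at 0. Col1a1 was at 252, 67.3 and 84.9 CPM in the hearts and 17.2, 20.9 and 24.4 in the endothelial cells (-2.72 ± 0.49). Postn, a matrix protein listed with fibroblasts, was higher (1.54 ± 0.17). Macrophage genes were lower in 10 of 14 cases and higher in 1 (2 without heart library 1), C1qa from 77.3, 44.9 and 43.4 CPM in the hearts to 4.66, 6.31 and 7.49 in the endothelial cells (-3.19 ± 0.28), and the receptor Mertk was higher (2.31 ± 0.15). Ptprc, the leukocyte marker CD45, was at 7.48, 11.7 and 9.4 CPM in the hearts and 17.8, 15.1 and 11.2 in the endothelial cells and did not pass (0.59 ± 0.23, adjusted p = 0.0506), though it did without heart library 2 (0.76) or endothelial library 3 (0.77).

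Mural and lymphoid genes were higher or did not pass in most cases. Of 8 pericyte genes 2 were higher (4 without heart library 1) and 1, the channel subunit Abcc9, lower (-1.49 ± 0.23), with Rgs5 at 477, 689.9 and 712 CPM in the hearts and 1523, 2438 and 1923 in the endothelial cells (1.62 ± 0.23) and Pdgfrb at 90.1, 61.8 and 69.5 CPM in the hearts and 86.3, 102 and 101 in the endothelial cells (0.36 ± 0.17, which passed only without heart library 1, at 0.50, among the fits that left out a library). Of 8 smooth muscle genes 5 were higher (7 without heart library 1, with the median going from 1.85 to 2.57) and 1, Smtn, lower (-1.31 ± 0.17), with Myh11 at 2.66 ± 0.34 and Acta2 at 1.57 ± 0.22. Their summed levels were 1021 to 1140 CPM in the endothelial cells and 375 to 471 in the hearts. Of 10 lymphocyte genes 7 were higher and none lower, where 32.2% of all genes tested were higher. Their median was 2.74, beside 2.43 for the junction list. Among them the B-cell gene Ms4a1, CD20, was higher at a low level, at 0.142, 0.0738 and 0.228 CPM in the hearts and 5.97, 6.34 and 5.2 in the endothelial cells (5.25 ± 0.39). Cd3d, of T cells, had 2 counts in the hearts and 69 in the endothelial libraries, a ratio of 16.1 (95% counting interval 4.29 to 135). Red cell and platelet genes summed to 1821, 155 and 104 CPM in the hearts and 315, 559 and 598 in the endothelial cells, and the count of those called higher went from 0 to 6 of 9 without heart library 1 (median from -0.97 to 1.62). Of 4 neutrophil genes tested Retnlg was higher and Csf3r lower (-2.14 ± 0.51), and none was called in Q150X. Retnlg had 1 count in the hearts and 129 in the endothelial libraries (ratio 60.1, 10.6 to 2390). The part of these cells in the inflammatory and early values was not tested.

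**Figure D5:**
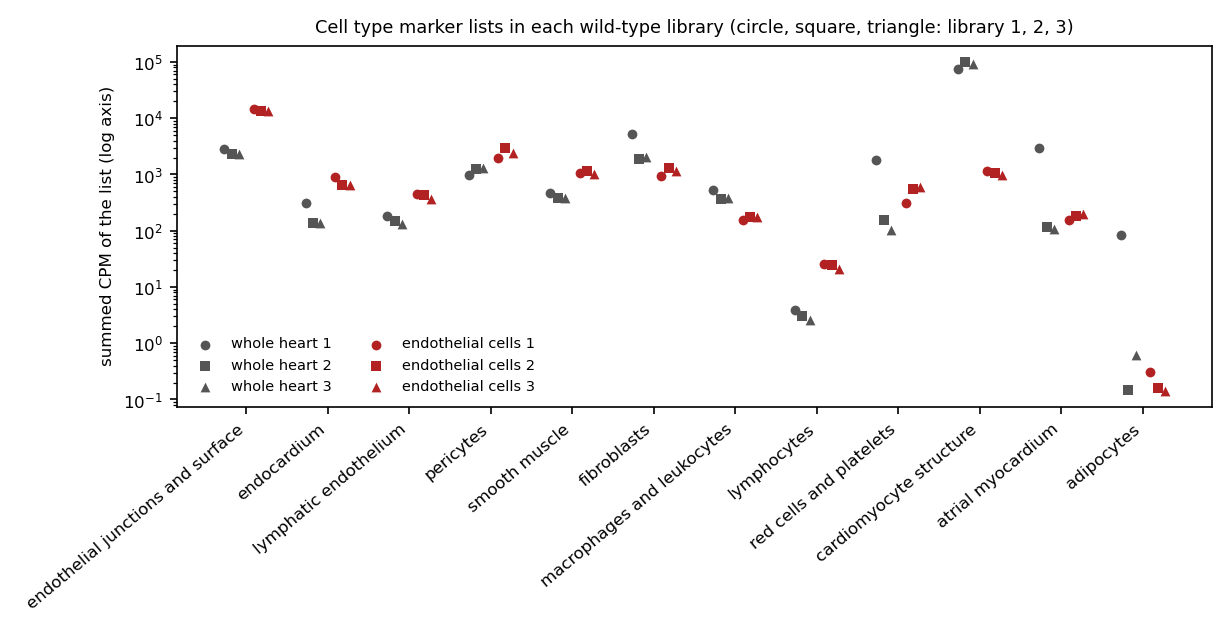
Each symbol is the summed CPM of a marker list in 1 wild-type library (grey whole heart, red endothelial cells; circle, square and triangle for libraries 1, 2 and 3), on a logarithmic axis. Heart library 1 lies above the other hearts in atrial, adipocyte, red cell and fibroblast genes, and endothelial libraries lie above the hearts in endothelial, smooth muscle and lymphocyte genes.

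Cell cycle genes were higher in 16 of 20 cases and lower in none (median 1.54). Pcna, the replication clamp, stood at 16.7, 23 and 18.2 CPM in the hearts and 120.5, 159 and 133 in the endothelial cells (2.80 ± 0.18). Mki67, the proliferation marker, was at 2.73, 5.72 and 3.92 CPM in the hearts and 9.16, 9.48 and 14.7 in the endothelial cells (1.40 ± 0.31) and the mitotic cyclin Ccnb2 at 0.851, 0.369 and 0.685 CPM in the hearts and 3.43, 3.38 and 6.03 in the endothelial cells (2.72 ± 0.41). The Wilms tumour factor Wt1, known from epicardium and from vessels, was at 5.89, 10.3 and 7.23 CPM in the hearts and 65.6, 61.3 and 62 in the endothelial cells (2.98 ± 0.22), the only 1 of 4 epicardial genes tested that was called.

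The same contrast was fitted in the Q150X libraries, which the wild-type comparison does not use. There 63.2% of 17617 genes were called, 5424 higher (30.8%) and 5703 lower (32.4%). Of the junction list 22 of 22 were higher (median 2.71 beside 2.43), of the immediate early list 33 of 34 (4.56 beside 4.19) and of the NF-kappaB list 23 of 25, with 1 lower (4.34 beside 3.91). All 20 genes of cardiomyocyte structure were lower (-6.65), and the chaperones again split, 6 higher and 6 lower of 16. The values of single genes were 2.70 for Cdh5, 2.53 for Kdr, -2.46 for Vegfa, 11.76 for Fosb, 7.79 for Sele and 10.12 for Il6. Cell cycle genes were higher in 9 of 20 cases (median 1.07). The difference of the contrast between genotypes, tested as an interaction over 18 libraries in edgeR, was called for 0 of 17617 genes, with 281 at an unadjusted p under 0.05. Those 281 are fewer than the 0.05 share of genes that uniform p-values would give, so the test was conservative here. The lack of calls therefore does not show that the contrast is the same in both genotypes. The number called was 0 in every setting of edgeR tried, and the interaction was fitted with no other tool. In that fit the interaction for Ccna2, 2.65 in wild type and 1.01 in Q150X, was 1.64 ± 0.79 (adjusted p = 1). The Q150X heart library numbered 1 also held atrial and fat RNA (Myl7 at 434 CPM).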

How the data were processed

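Bulk RNA was sequenced from 43 libraries in 14 groups, and 6 libraries enter the main comparison. The values are whole-number read counts per gene for 57010 genes, as deposited; the submitters' processing notes name HISAT2, kallisto and GRCm39 with no role, and neither labels nor file state the counter, annotation or strandedness. Gene symbols were matched for 52029 identifiers. The counts were tested with edgeR 4.0.16 in R 4.3.3 (filterByExpr with a count minimum of 10 and a total minimum of 15, TMM scaling, quasi-likelihood F test, Benjamini-Hochberg adjustment over all genes tested, and glmTreat for the 2-fold test). The Q150X, cardiomyocyte and interaction values come from 1 fit of the 18 homeostasis libraries. Printed CPM use TMM factors over those 18 libraries, so they need not sum to 1000000.

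DESeq2 1.42.0, other scalings, no filter, a replicate block and leaving out each library were alternatives. On simulated counts for 15042 genes of this comparison, edgeR recovered 56% of 2-fold and 93% of 4-fold changes, with 8 false calls. The simulation gave both groups the heart profile and changed 200 genes, equally up and down. In the data 64.7% of genes were called, so these shares and false calls do not carry over to the comparison itself. Squared differences between libraries were divided by those from sampling noise alone and averaged over genes. This ratio was 126 for hearts 1 and 2, 110 for hearts 1 and 3, 8.56 for hearts 2 and 3, and 16.1 to 37 for endothelial pairs. No pair agreed within sampling noise, so each library was counted as 1 sample, which does not show separate animals. Same-numbered heart and endothelial libraries did not deviate together (r across genes -0.104, 0.088 and -0.142). Counting intervals cover counting error only.

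The text names, by rule, the 10 largest changes in each direction past the 2-fold test at 5 log2 CPM or more in the higher group without overlap of the groups, up to 4 called members per direction of each list, members called against their list, and a few fixed genes. Other members are examples chosen after their values were seen. Members and lists were chosen with earlier results of these data known. Some genes stand in more than 1 list, so list counts are not independent. Promoter windows come from RefSeq tables. A few genes that the rule names are not reported here.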

Additional observations from a re-analysis of the deposited data

How the results depend on the processing

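Without 1 library at a time, 4520 to 6269 genes were higher and 4715 to 6042 lower, and 2159 to 3321 passed the 2-fold test upward and 2861 to 3561 downward. With the replicate block 4873 genes were higher and 4803 lower, and 5476 and 5584 in Q150X. No count moved by over 1.5 times under the block. The heart libraries numbered 1 of both genotypes were alike in atrial RNA (summed 3003 and 2927 CPM, beside 108 to 142 in the other hearts), but heart and endothelial libraries of the same number did not deviate together. On library size alone 7973 genes were higher, 3368 lower and 4752 past the 2-fold test upward. In Q150X the counts on library size alone were 8375 and 3683, and in cardiomyocytes 297 and 8852. Cardiomyocyte genes called higher ranged from 1541 (without heart library 1) to 2327 without single libraries. The cause of these shifts was not tested.

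The chaperone median turned to 0.60 on library size alone, 0.04 with no filter, and 0.004 and 0.009 without endothelial library 1 or 3. Medians also turned for atrial genes (2.19 with the replicate block, 6.20 without heart library 1), red cells and platelets (0.48 with the block, 1.62 without heart library 1), neutrophils (0.047 on library size alone), epicardium (0.56 on library size alone, 1.26 without heart library 1) and sex-linked genes (-0.01 without heart library 1). Over the fits without single libraries the medians ranged from -0.15 to 0.009 for chaperones, -3.40 to 6.20 for atrial genes, -1.48 to 1.62 for red cells and platelets, -1.81 to 1.26 for epicardium and -0.01 to 0.29 for sex-linked genes.

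Single genes that changed sign on library size alone were Col15a1 (0.001), Tnfaip2 (0.089), Eif2s3y (0.10), Apln (0.54), Notch2 (0.51), Heyl (0.14), Vegfd (0.16), Cpt1a (0.36), Eno1 (0.23), Pfkp (0.35), Pgam1 (0.20), Ptgis (0.55) and Tfpi (0.37). With the replicate block Myl7 (5.15), Bmp10 (3.10), Myl4 (3.71), Sln (2.77) and Ptgis (0.19) did so, and with no filter Ptgis (0.027). Without heart library 1 the values were 14.05 for Myl7 and 12.05 for Bmp10, both dependent on the fit as the remaining hearts are at 0, 5.80 for Myl4, 6.60 for Sln, 0.39 for Vegfd and 0.75 for Ptgis. Without endothelial library 1 Apln was at 0.006. Of 243 genes, 208 never changed sign or lost a call in any of the 13 alternatives that gave them a value (DESeq2 gave no adjusted p for 5). The number of libraries, 3 in each group, limits the precision, and genes at a few counts were left out by the filter. Over the fits without single libraries these values ranged from -2.43 to 14.05 for Myl7, -3.50 to 12.05 for Bmp10, -2.88 to 5.80 for Myl4, -3.30 to 6.60 for Sln, -0.78 to 0.39 for Vegfd, -0.38 to 0.75 for Ptgis and -0.27 to 0.006 for Apln.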

Other observations

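Sex-linked genes were measured in the same 6 libraries. The Y-linked Ddx3y stood at 52, 87.2 and 74.2 CPM in the hearts and 152, 162 and 124 in the endothelial cells (1.01 ± 0.21), and Eif2s3y at 38.5, 74.4 and 56.8 CPM in the hearts and 37.6, 39.6 and 38.5 in the endothelial cells (-0.59 ± 0.22, a call lost in 5 of the 6 fits that left out 1 library). Xist, the RNA of the inactive X, was at most 0.666 CPM in any of the 6. Y-linked transcripts were detected in every library and Xist was near 0 in all of them, although the labels used here give no sex.

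Of 6 glial genes of nerves 3 were lower, beside 32.5% of all genes, and 3 did not pass (median -1.22). Values ranged from -3.07 to 2.12, and without heart library 1, 3 were lower and 1 higher. Sox10 stood at 4.43, 0.628 and 0.914 CPM in the hearts and 0.254, 0.175 and 0.287 in the endothelial cells (-3.07 ± 0.76). Kcna1 (-2.70 ± 0.62) was lower too, and both were highest in heart library 1. No adipocyte gene of the 6 listed passed the filter on low counts.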
